A study of Oryctolagus cuniculus with 24 samples.

Results

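MHC class II molecules are pairs of an alpha and a beta chain that antigen-presenting cells (B cells, monocytes, dendritic cells) load with peptides in endosomes and show to CD4+ T cells. DR, DQ and DP are the presenting pairs, DM is the pair that exchanges the invariant chain's remnant for a peptide, and DO is a pair that binds DM and restrains it. Their genes lie together in the MHC and are switched on as a group by the co-activator CIITA, which binds to a complex of RFX, CREB and NF-Y proteins at their promoters.

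The class II genes were found by name, from a list drawn up with earlier results of these data known: 8 genes (RLA-DR-ALPHA, RLA-DRB1, RLA-DQA, HLA-DPA1, HLA-DPB1, RLA-DMB, HLA-DMA and HLA-DOA), measured by 13 probes, of the 28869 genes and 42089 probes of the array. RNA came from peripheral blood mononuclear cells (PBMCs) of 4 rabbits, all adult females of the New Zealand White breed, which carry the numbers 1, 2, 4 and 5 here. Cells of each rabbit were mock-stimulated, stimulated with LPS (lipopolysaccharide of bacterial outer membranes, 1 µg/mL) or stimulated with PMA-Ionomycin (phorbol myristate acetate, an activator of protein kinase C, at 10 ng/mL, with ionomycin, a calcium ionophore, at 1 µg/mL). They were collected after 4 hours (T4) or 24 hours (T24), which gave 6 groups of 4 arrays and 24 one-colour Agilent arrays, with every rabbit in every group. No group carried a genetic change, and the mixture of cell types in each culture was not sorted, so that fewer cells of a type and less RNA per cell cannot be told apart in any value below.

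A level is the log2 of a probe's median spot signal minus the median over the non-control spots of the same array, averaged over the probes of a gene, and a change is a difference between the mean levels of 2 groups. A gene was called differentially expressed (DE) at an adjusted p under 0.05 by limma over all 28869 genes. Levels of different genes come from different probes and are not set against each other. On each array 51.4 to 62.3% of the spots were well above background. Every member, by most of its probes, was well above background on all 24 arrays except HLA-DPA1, which was on 21.

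The probes decide which gene each value stands for, since class II chains have near-identical relatives. Each probe has 60 bases, and the following sequences are those of the presenting chains and of HLA-DOA, shown because the values below rest on whether these sequences are told apart by hybridisation. Capitals mark the 2 positions at which the RLA-DQA probe and an unnamed probe over the same stretch differ.
RLA-DR-ALPHA, probe 1: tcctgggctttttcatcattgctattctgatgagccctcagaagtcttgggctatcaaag
RLA-DR-ALPHA, probe 2: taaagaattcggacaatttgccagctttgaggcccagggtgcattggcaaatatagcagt
RLA-DRB1: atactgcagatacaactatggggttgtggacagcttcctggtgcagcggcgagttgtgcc
RLA-DQA: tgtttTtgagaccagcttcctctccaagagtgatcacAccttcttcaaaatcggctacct
unnamed, over RLA-DQA: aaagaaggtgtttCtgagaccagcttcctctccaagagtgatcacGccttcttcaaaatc
HLA-DPA1: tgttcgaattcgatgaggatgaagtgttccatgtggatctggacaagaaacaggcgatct
HLA-DPB1: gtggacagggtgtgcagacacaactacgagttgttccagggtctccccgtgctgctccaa
HLA-DOA: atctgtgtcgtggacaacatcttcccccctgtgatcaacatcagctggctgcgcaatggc

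By the positions in the files (build oryCun2), the RLA-DR-ALPHA probes lie on the plus strand at chr12:23070407-23070466 and chr12:23072631-23072690, the RLA-DQA probe at chr12:23258457-23258516, and the HLA-DPB1 probe at chr12:23556152-23556211. The HLA-DPA1 probe lies on the minus strand at chr12:23544791-23544850. The RLA-DRB1 probe covers chr12:23176786-23178683 on the minus strand, 1898 bases of genome for 60 bases of probe, as a probe across an exon junction would. It belongs to a gene that the files describe as DR-beta chain-like and whose gene number is not that of RLA-DRB1 in the RefSeq table, so that which DR beta gene it measured cannot be told. The probe of HLA-DMA, the DM alpha chain, lies at chr12:23467875-23467934. The 5 probes of RLA-DMB, the DM beta chain, lie between bases 23449981 and 23450169 of chromosome 12, and 4 of them are windows shifted by 1 base. The HLA-DOA probe was spotted 3 times and carries no position in the files. It was tied to its name by the Ensembl gene identifier of the study's list of immunity genes.

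The unnamed probe overlaps the RLA-DQA probe over 52 bases, with 2 differences, T6C and A38G, counted from the 5′ end of the RLA-DQA probe, with the base of the RLA-DQA probe first. Its changes from mock to PMA-Ionomycin (0.1 at T4 and -4.14 at T24) were close to those of the RLA-DQA probe (0.09 and -4.19). The pair is therefore not counted as 2 measurements. The longest run that any other member probe shared with a probe of another gene was 16 bases, for 1 of the RLA-DMB probes.

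At T24, all 8 class II genes were DE and lower after PMA-Ionomycin. For each of them the 4 stimulated arrays lay below the 4 mock arrays, but the share of all genes so separated was not counted. The median change of the 8 genes was -3.98 on the log2 scale, beside 0.031 over all genes. Of all genes, 11.5% were DE and lower in this comparison and 22.1% DE and higher. Shares over all genes include many dim probes. With these left out, 55.5% of 17494 genes were DE in either direction after PMA-Ionomycin at T24, against 33.6% of all genes. At T4 these shares were 39% and 22.8%. The falls ran from 1.98-fold for HLA-DPB1 to 24.6-fold for RLA-DR-ALPHA, changes of -0.99 and -4.62, which were -1.63 and -5.92 with the background-subtracted processed signal.

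**Figure D1:**
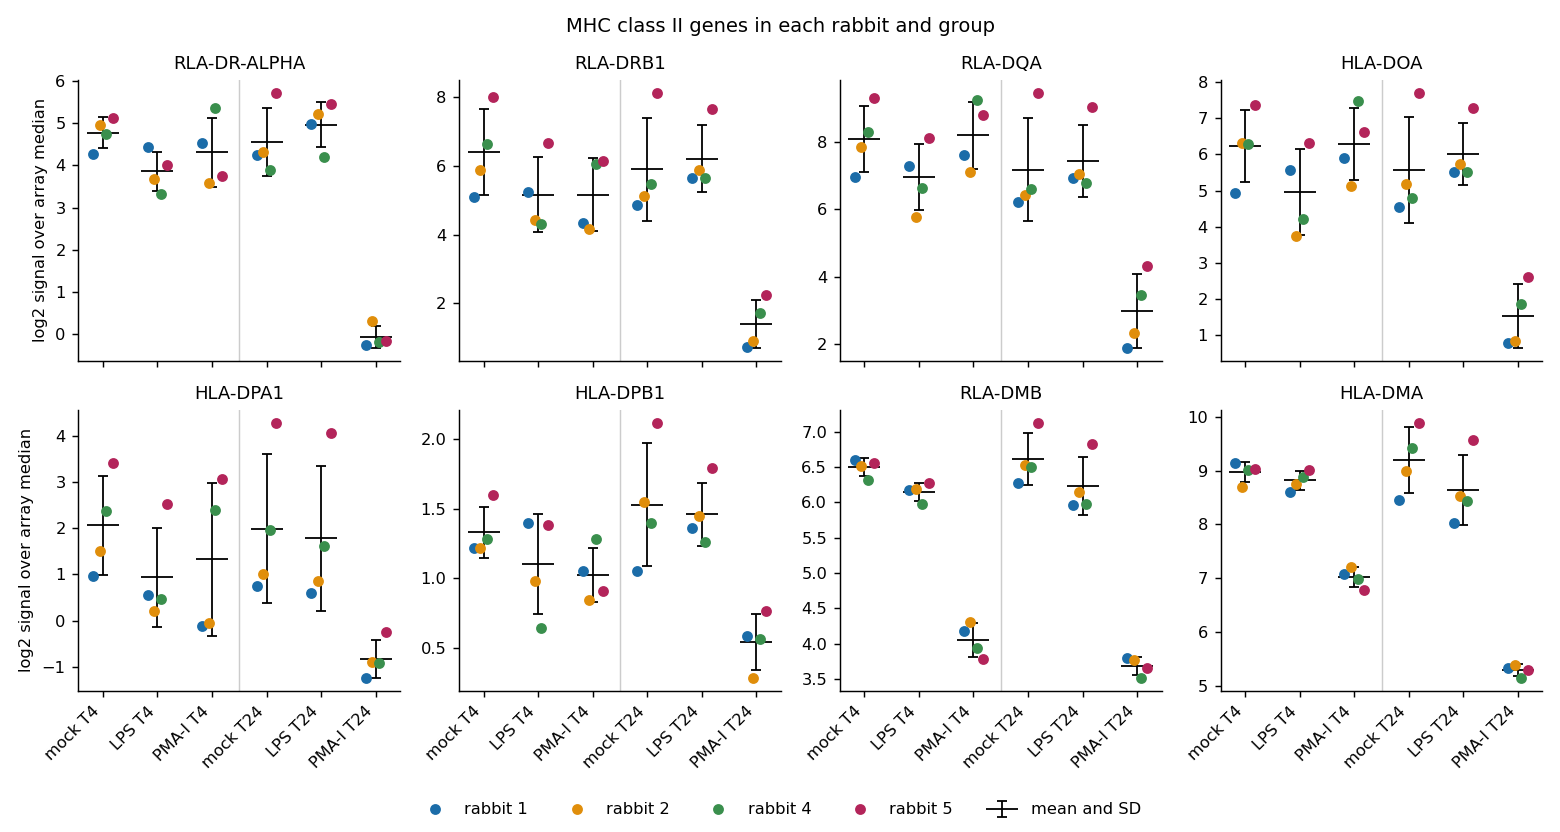
Level of each class II gene (log2 signal over the array median, a separate scale in each panel) on all 24 arrays, by group, with 1 colour per rabbit and the group mean and SD (n = 4) in black. After PMA-Ionomycin (PMA-I) at T24 every gene lies below its mock arrays of the same time, while at T4 only RLA-DMB and HLA-DMA do so with DE calls.

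RLA-DR-ALPHA encodes the alpha chain of DR, the chain that varies least between individuals. In mock-stimulated PBMCs at T24 its levels were 4.26, 4.31, 3.9 and 5.73 in rabbits 1, 2, 4 and 5, and after PMA-Ionomycin they were -0.25, 0.31, -0.18 and -0.17. The stimulated arrays lay near the median spot of their array and the groups were far apart. The change was -4.62 ± 0.376 (SE), with an adjusted p of 8.88e-10. Its 2 probes, at separate places in the gene, gave changes of -4.7 and -4.54 when fitted singly.

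RLA-DRB1 stands for the DR beta chain, the partner of DR alpha. Its levels at T24 were 4.86, 5.12, 5.48 and 8.14 in mock-stimulated PBMCs of rabbits 1, 2, 4 and 5, and 0.74, 0.91, 1.71 and 2.24 after PMA-Ionomycin. Rabbit 5 was highest in both groups, and its stimulated array still lay below every mock array. The fall was 22.6-fold (adjusted p = 2.03e-05).

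RLA-DQA encodes the alpha chain of DQ. Its mock levels at T24 were 6.21, 6.42, 6.61 and 9.48, and those after PMA-Ionomycin 1.87, 2.31, 3.44 and 4.31, in the same order of rabbits. The rabbits kept one order in both groups, and the groups did not overlap. The change was -4.19 ± 0.72 (SE), an 18.3-fold fall (adjusted p = 5.09e-05).

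HLA-DOA, the alpha chain of DO, which modulates DM mainly in B cells, had mock levels of 4.55, 5.19, 4.8 and 7.72 at T24 and 0.76, 0.82, 1.85 and 2.6 after PMA-Ionomycin. It fell 16.7-fold (adjusted p = 4.6e-05), and rabbit 5 was again the highest array of both groups. Within groups, its deviations from the group means correlated with those of RLA-DQA at r = 0.975 over the 24 arrays, a description of arrays that the 2 genes share. Its probe shares no run over 14 bases with a probe of another gene, and whether DQ alpha RNA binds it was not tested.

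HLA-DPA1 and HLA-DPB1 encode the 2 chains of DP. HLA-DPA1 had mock levels of 0.74, 1, 1.96 and 4.28 at T24, and -1.24, -0.9, -0.92 and -0.25 after PMA-Ionomycin, where only 1 of the 4 arrays was well above background. The fitted change was -2.82 (adjusted p = 0.00964), with the other 3 stimulated arrays not well above background, and without rabbit 4 it was not DE (adjusted p = 0.0667). With the processed signal, from which the background is subtracted, the change was -5.34. HLA-DPB1 had mock levels of 1.05, 1.55, 1.4 and 2.12 at T24 and 0.58, 0.28, 0.56 and 0.76 after PMA-Ionomycin. Its change, -0.99 ± 0.194 (SE, adjusted p = 0.000255), was the smallest of the 8.

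RLA-DMB and HLA-DMA encode the 2 chains of DM. RLA-DMB levels at T24 were 6.27, 6.53, 6.5 and 7.13 in mock-stimulated PBMCs and 3.79, 3.77, 3.51 and 3.66 after PMA-Ionomycin. HLA-DMA levels were 8.45, 9, 9.42 and 9.89, and 5.34, 5.39, 5.15 and 5.3. The 4 stimulated arrays of each gene lay within 0.3 of each other, a narrower range than in the mock group. The falls were 7.61-fold for RLA-DMB (adjusted p = 1.04e-11) and 14.9-fold for HLA-DMA (adjusted p = 3.34e-11). Within each of the 3 slides, every member was lower after PMA-Ionomycin at T24 than in mock.

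At T4 the same stimulation gave another picture. RLA-DMB and HLA-DMA were DE and lower, and the other 6 genes were not DE (2 of 8, median change -0.6, beside 0.046 over all genes). Of all genes, 9.34% were DE and lower and 13.5% DE and higher. RLA-DMB levels were 6.6, 6.51, 6.32 and 6.56 in mock at T4 and 4.18, 4.3, 3.94 and 3.78 after PMA-Ionomycin, a 5.45-fold fall (adjusted p = 7.04e-10). HLA-DMA levels were 9.15, 8.7, 9.01 and 9.03 in mock and 7.09, 7.22, 6.99 and 6.78 after PMA-Ionomycin, a 3.86-fold fall (adjusted p = 3.52e-06). Neither gene's groups overlapped, and each fell in 4 of 4 rabbits. All 5 RLA-DMB probes were DE when fitted singly.

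The presenting chains and HLA-DOA overlapped with mock at T4. RLA-DR-ALPHA levels were 4.27, 4.96, 4.75 and 5.13 in mock and 4.53, 3.59, 5.37 and 3.74 after PMA-Ionomycin, higher in 2 rabbits and lower in 2. Its change of -0.47 had a 95% interval from -1.25 to 0.31. RLA-DQA (change 0.09, interval -1.4 to 1.59) and HLA-DOA (0.06, interval -1.37 to 1.49) were also each higher in 2 rabbits and lower in 2. The intervals leave room for changes of more than 2-fold in either direction for RLA-DQA and HLA-DOA, and their small values changed sign under several alternatives. RLA-DRB1 was lower in 4 of 4 rabbits (change -1.24), was not DE (adjusted p = 0.278), and was DE once the rabbit entered the fit as a block (adjusted p = 0.0108). HLA-DPA1 (-0.74) and HLA-DPB1 (-0.31) were not DE.

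**Figure D2:**
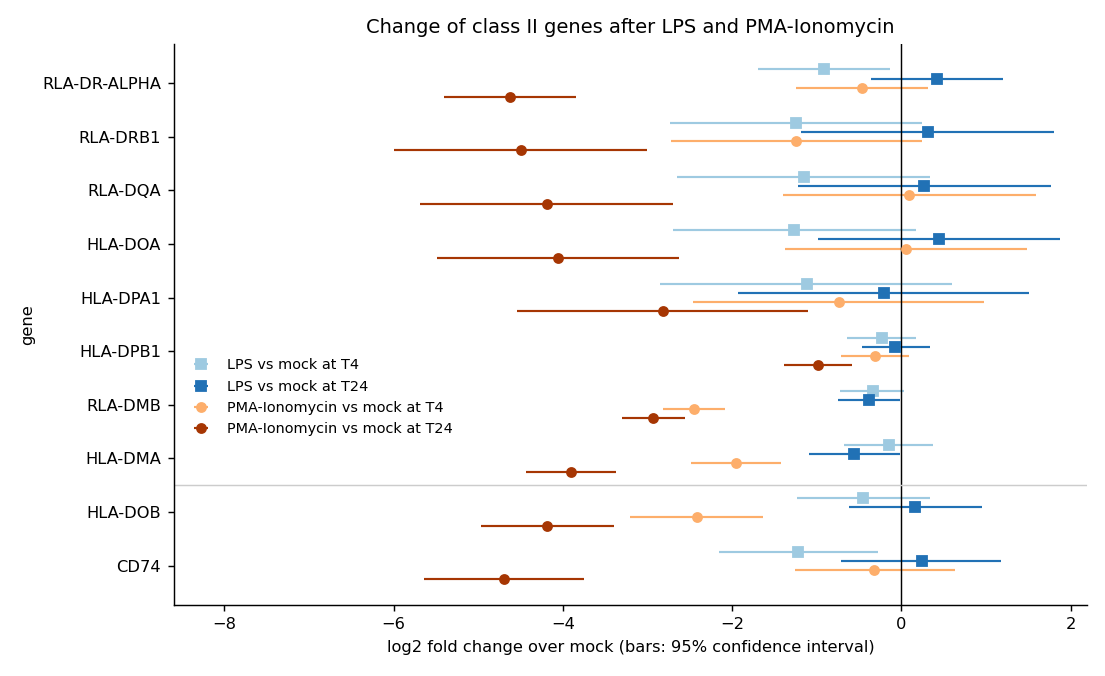
Change of each class II gene against mock (log2 fold change, x axis, with its 95% confidence interval) after LPS (squares) and PMA-Ionomycin (circles) at T4 (light) and T24 (dark), with HLA-DOB and CD74 below the line. After PMA-Ionomycin at T4 the intervals of RLA-DMB, HLA-DMA and HLA-DOB lie below 0 and those of the other genes reach across it, while at T24 all lie below 0.

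The DM genes were also set against the DR genes by the difference between the 2 genes on each array, a description of genes picked after their changes were seen, with no test. From mock to PMA-Ionomycin at T4, RLA-DMB minus RLA-DR-ALPHA changed by -1.98 (-3 to -0.84 in the 4 rabbits) and HLA-DMA minus RLA-DR-ALPHA by -1.48 (-2.64 to -0.12), and in neither did the groups overlap. Against RLA-DRB1 the changes at T4 were smaller, -1.21 for RLA-DMB and -0.71 for HLA-DMA, and the groups overlapped. At T24 the signs were the opposite: RLA-DMB changed by 1.69 relative to RLA-DR-ALPHA and by 1.57 relative to RLA-DRB1, without overlap, and HLA-DMA by 0.72 and 0.6, with overlap.

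The change from T4 to T24 was itself tested as an interaction of PMA-Ionomycin and time. For 5 of the 8 members the PMA-Ionomycin effect was DE between times and lower at T24, beside 8.15% of all genes. These were RLA-DQA (-4.29 ± 1.02, adjusted p = 0.00286), RLA-DR-ALPHA (-4.15 ± 0.532, adjusted p = 2.97e-06), HLA-DOA (-4.12 ± 0.978, adjusted p = 0.00284), RLA-DRB1 (-3.26 ± 1.01, adjusted p = 0.0211) and HLA-DMA (-1.95 ± 0.363, adjusted p = 0.00027), with SE. RLA-DRB1 was not DE without rabbit 1, 2 or 4 (adjusted p = 0.0819, 0.07 and 0.1), although its change stayed at -3.23, -3.52 and -3.29. RLA-DMB gave -0.48 with an interval from -1 to 0.04, beside a change of -2.45 at T4. HLA-DPA1 (-2.08) and HLA-DPB1 (-0.67) were not DE and became DE with the rabbit as a block, with adjusted p of 0.00482 and 0.0409.

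Compared within the stimulated PBMCs, 6 of the 8 genes were DE and lower at T24 than at T4 after PMA-Ionomycin, beside 13.4% of all genes. RLA-DQA fell most, from 7.63, 7.11, 9.27 and 8.81 at T4 to 1.87, 2.31, 3.44 and 4.31 at T24, 37.3-fold (adjusted p = 3.01e-06). HLA-DPA1 was near the threshold (adjusted p = 0.0497) and was not DE under several alternatives, such as quantile normalization (adjusted p = 0.0828) or without rabbit 4 (0.284). RLA-DMB and HLA-DPB1 were not DE (adjusted p = 0.123 and 0.0622), but HLA-DPB1 was DE and lower under 9 of the 14 alternatives (adjusted p = 0.0296 with the rabbit as a block) and RLA-DMB under 4 (-0.72 by quantile normalization, -0.74 with the processed signal, -0.7 by normexp and -0.45 without rabbit 5). The median over all genes stood at -0.102 in this comparison.

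LPS gave no DE call among the class II genes. At T4 all 8 changes lay below 0, with a median of -1.02 beside 0.058 over all genes, and by limma 1 gene, RLA-DR-ALPHA, passed 0.05 before adjustment (change -0.91, adjusted p = 0.255). Of all genes, 1.03% were DE in either direction. RLA-DR-ALPHA levels after LPS at T4 were 4.43, 3.69, 3.32 and 4.01, lower than mock in 3 of 4 rabbits and overlapping with it. RLA-DRB1 levels were 5.24, 4.44, 4.31 and 6.68 against 5.1, 5.87, 6.65 and 8.02 in mock. Its change of -1.24 was not DE (adjusted p = 0.47), and was DE with the rabbit as a block (adjusted p = 0.0481). In rabbit 1 both genes were slightly higher after LPS than in mock. RLA-DMB changed by -0.34 and was not DE (adjusted p = 0.411). Its LPS arrays (6.18, 6.19, 5.97 and 6.27) all lay below its mock arrays, while the groups of every other member overlapped. How many of all genes were so separated was not counted.

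At T24 the LPS changes scattered around 0 (median 0.1, beside -0.031 over all genes), with 0 of 8 DE beside 1.22% of all genes. By limma, 2 genes passed 0.05 before adjustment, HLA-DMA (-0.56, adjusted p = 0.423) and RLA-DMB (-0.38, adjusted p = 0.438). For the interaction of LPS and time, 0 of 8 were DE beside 1.95% of all genes, and 1 passed 0.05 before adjustment (RLA-DR-ALPHA, 1.33, adjusted p = 0.203 by limma). Intervals of these differences were wide, from -0.55 to 3.66 for RLA-DRB1.

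In mock-stimulated PBMCs 0 of 8 were DE between T4 and T24, none had an unadjusted p under 0.05, and the median change was -0.15, beside 12.5% of all genes DE and 7.41% DE and higher. The intervals were wide for some members: RLA-DQA changed by -0.93 (95% interval -2.42 to 0.56) and HLA-DOA by -0.66 (-2.09 to 0.77), each lower in 3 of 4 rabbits, against 0.11 (-0.26 to 0.48) for RLA-DMB. In LPS-stimulated PBMCs 1 gene, RLA-DR-ALPHA, was DE and higher at T24, beside 16.7% of all genes. It rose by 1.1 in 4 of 4 rabbits (adjusted p = 0.0268), from 3.86 ± 0.47 to 4.97 ± 0.543 (SD, n = 4), while the median over all genes stood at -0.191. This call was lost under quantile normalization (adjusted p = 0.0765), with the processed signal (0.0991), and without rabbit 1, 2 or 5 (0.0533, 0.134 and 0.0529). One of its 2 probes was DE when fitted singly (1.45, adjusted p = 0.0135) and the other was not (0.75, adjusted p = 0.0781). With the rabbit as a block, RLA-DRB1 was DE and higher beside RLA-DR-ALPHA in this comparison (1.04, adjusted p = 0.0233).

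Ordered by level, each gene had its lowest group mean after PMA-Ionomycin at T24. For RLA-DR-ALPHA the group means were 4.97 ± 0.543 with LPS at T24, 4.78 ± 0.374 in mock at T4, 4.55 ± 0.809 in mock at T24, 4.31 ± 0.818 at T4 of PMA-Ionomycin and 3.86 ± 0.47 at T4 of LPS (SD, n = 4). Each neighbour in this order differed from the next by less than the SD of one of them. The last group, at -0.07 ± 0.258, stood apart. For RLA-DMB the order was different: both PMA-Ionomycin groups (4.05 ± 0.236 at T4 and 3.68 ± 0.129 at T24) lay apart from the 4 mock and LPS groups, whose means ran from 6.15 to 6.61.

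The rabbits differed among themselves in a manner that separated the members. Rabbit 5 lay above the group mean in 6 of 6 groups for HLA-DPA1, RLA-DRB1, RLA-DQA and HLA-DOA, by 1.64, 1.44, 1.37 and 1.23 on average. For RLA-DR-ALPHA, HLA-DPB1, HLA-DMA and RLA-DMB its mean deviation was between 0.17 and 0.27. Rabbit 5 also had the highest summed level of 11 B cell markers in 5 of 6 groups (9.5 in mock at T4, against 8.52 to 8.64 in the other rabbits). The lowest summed level of 12 monocyte markers was that of rabbit 5 in 3 of 6 groups and that of rabbit 2 in the other 3. A sum follows its brightest probes. By the median level of these markers rabbit 2 was not the lowest in any group and was the highest after LPS at T4 (1.14) and T24 (4.53). Rabbit 1 had the highest summed monocyte level in 6 of 6 groups. Rabbits 1 and 2 both lay below the group mean on average for RLA-DQA (-0.67 and -0.72) and HLA-DPA1 (-0.96 and -0.78). The part of cell makeup in these deviations was not tested.

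**Figure D3:**
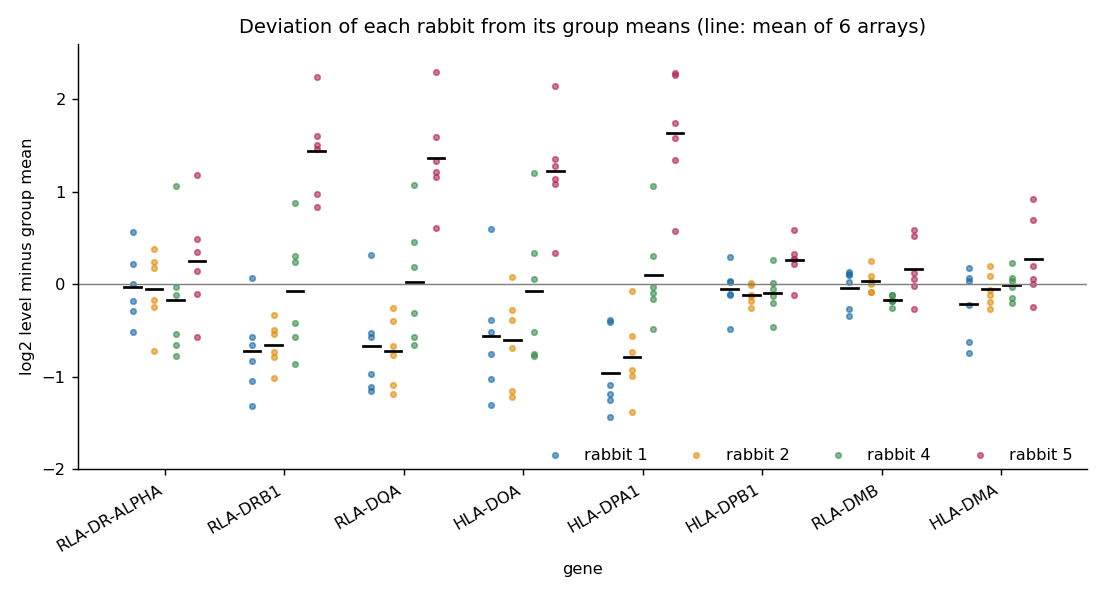
Deviation of each array from the mean of its group (log2 level, y axis) for each class II gene, with 1 colour per rabbit, 6 arrays per rabbit and their mean as a black line. Rabbit 5 stands above the others for RLA-DRB1, RLA-DQA, HLA-DOA and HLA-DPA1, with mean deviations of 1.23 to 1.64.

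Deviations from the group means were also correlated between members over the 24 arrays. RLA-DRB1, RLA-DQA, HLA-DOA and HLA-DPA1 correlated with each other at r = 0.842 to 0.975, and RLA-DMB with HLA-DMA at 0.852. Between these 4 genes and the DM genes r ran from 0.395 to 0.576. HLA-DPB1 correlated with the 4 genes at 0.656 to 0.852, and with RLA-DMB and HLA-DMA at 0.618 and 0.542. RLA-DR-ALPHA correlated with the 4 genes at 0.471 to 0.714, and with RLA-DMB and HLA-DMA at 0.477 and 0.312. These arrays share their rabbits and slides, so the values are descriptions.

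The genes that share the region or the pathway extend the picture. HLA-DOB, the DO beta chain, fell at both times after PMA-Ionomycin. Its levels were 3.22, 3.23, 3.3 and 4.29 in mock at T4 and 0.96, 0.55, 1.66 and 1.19 after PMA-Ionomycin (change -2.42, adjusted p = 3.43e-05). At T24 its change was -4.19 (adjusted p = 4.89e-09), when its 3 probes were well above background on 3, 1 and 0 of the 4 stimulated arrays. HLA-DOA was not DE at T4, and the difference between the DO chains was not tested. CD74, the invariant chain that occupies the groove of new class II molecules, changed by -0.32 at T4 (adjusted p = 0.779) and by -4.69 at T24 (adjusted p = 1.46e-08). These were the 2 of 7 further class II genes listed that were matched to a probe.

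Along chromosome 12 the class II genes flank PSMB8, TAP1 and PSMB9, which encode proteasome subunits and a peptide transporter of the class I pathway. These genes did not follow their neighbours at T24. PSMB9 rose by 2.25 (adjusted p = 2e-06) and TAP1 by 1.45 (adjusted p = 0.00387), while PSMB8 (0.13) was not DE. At T4, PSMB8 (-1.6, adjusted p = 0.000143) and PSMB9 (-0.99, adjusted p = 0.0184) were lower, and TAP1 (0.69) was not DE. The unnamed probe between RLA-DRB1 and RLA-DQA was DE and lower at both times (-1.35 and -4.39), and the unnamed transcript between RLA-DQA and HLA-DOB was DE at T24 and not at T4 (-3.27 and -0.12).

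**Figure D4:**
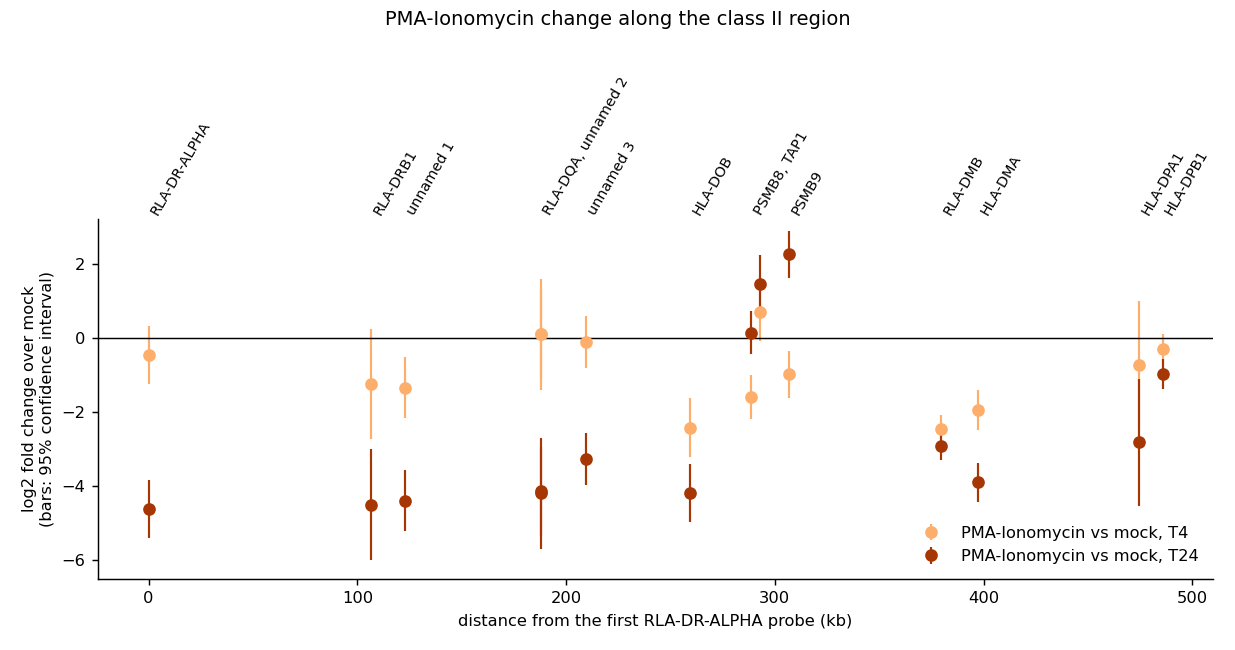
Change after PMA-Ionomycin against mock (log2 fold change, y axis, with its 95% confidence interval) at T4 (light) and T24 (dark) for the genes and unnamed probes between RLA-DR-ALPHA and HLA-DPB1, by distance from the first RLA-DR-ALPHA probe in kb. The class II genes on either side of PSMB8, TAP1 and PSMB9 fall at T24, and these 3 genes do not.

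Of 8 genes for the transcription factors of class II promoters, 6 were matched to a probe, CIITA and RFXANK not among them. After PMA-Ionomycin at T24, 2 were DE and lower and 2 DE and higher (beside 11.5% and 22.1% of all genes), with a list median of -0.06. RFX5, the DNA-binding subunit of RFX, changed by -0.75 (adjusted p = 0.00964) and CREB1 by -0.47 (adjusted p = 0.00316). NFYB rose by 0.74 (adjusted p = 0.000115) and RFXAP by 0.36 (adjusted p = 0.00619), after both had been lower at T4 (-0.4 and -0.3). NFYA (-0.28) and NFYC (0.16) were not DE at T24.

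Of 10 genes known to act on CIITA, 9 were matched. Apart from IFNG, whose probes disagreed, 4 were DE and higher and 3 lower after PMA-Ionomycin at T4 (beside 13.5% and 9.34% of all genes), and 3 were higher and 3 lower at T24 (beside 22.1% and 11.5%). ZBTB32, a repressor of class II genes in B cells and plasma cells, rose most, by 3.8 at T4 and 5.02 at T24 (adjusted p = 2.64e-09 and 9.49e-12). Its T24 levels were -0.91, -0.56, -0.18 and -0.19 in mock and 4.5, 4.08, 4.69 and 4.97 after PMA-Ionomycin. SPI1, the myeloid and B cell factor PU.1, fell by 1.3 and 1.76 at T4 and T24, USF1 by 1.74 and 1.38, and IRF2 by 0.63 and 0.65. IRF4 rose at both times (2.07 and 0.57), while IRF1 and IRF8 rose at T4 (1.48 each) and were not DE at T24 (0.51 and -0.54). The 2 probes of IFNG, the interferon that induces CIITA in many cell types, went against each other at T24 (3.85 and -1.34) and at T4 (3.16 and -0.79), so that its mean is not given.

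**Figure D5:**
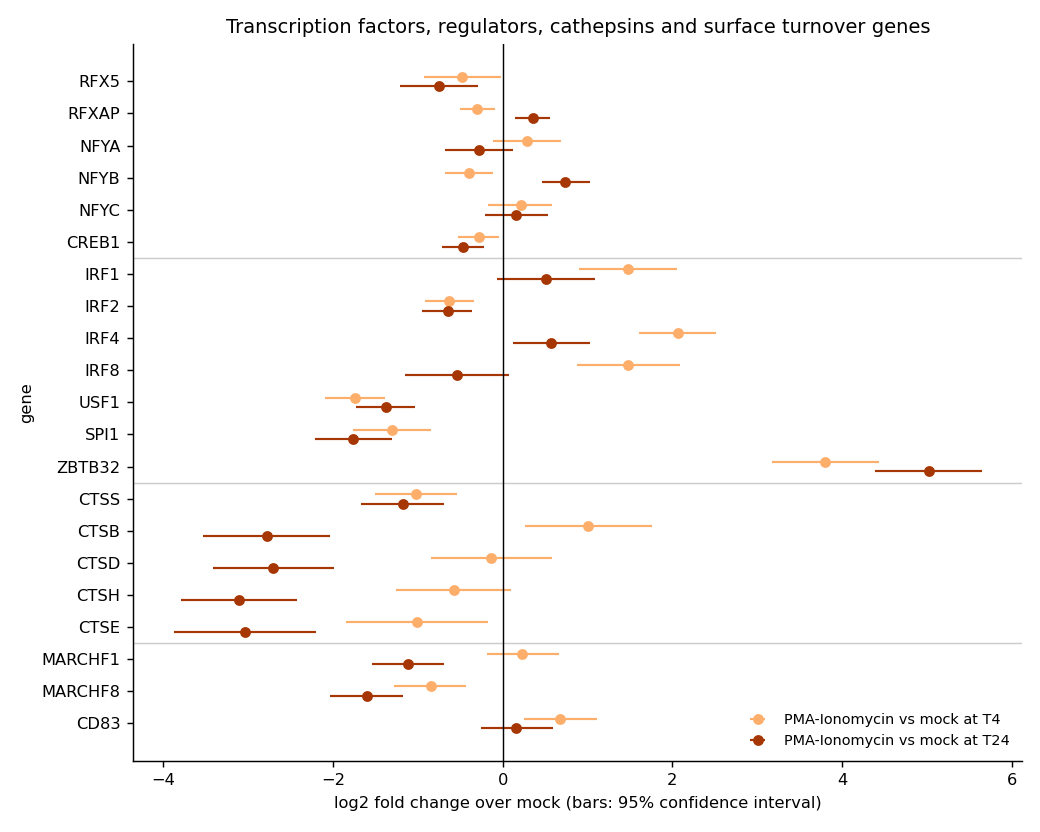
Change after PMA-Ionomycin against mock (log2 fold change, x axis, with its 95% confidence interval) at T4 (light) and T24 (dark) for class II transcription factors, regulators of CIITA, cathepsins and surface turnover genes, parted by grey lines. ZBTB32 has the largest rise, 3.8 and 5.02, and the 5 cathepsins all lie below 0 at T24.

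Of 8 genes for endosomal processing, the 5 cathepsins CTSS, CTSB, CTSD, CTSH and CTSE were matched, proteases of which CTSS cleaves the invariant chain. All 5 were DE and lower after PMA-Ionomycin at T24 (beside 11.5% of all genes), with a median of -2.78. CTSH changed by -3.11 (adjusted p = 6.05e-08), CTSE by -3.04, CTSB by -2.78, CTSD by -2.71 and CTSS by -1.18 (adjusted p = 0.000302). At T4, CTSS was lower (-1.02) and CTSB higher (1.01, adjusted p = 0.0459). In mock-stimulated PBMCs all 5 were DE and higher at T24 than at T4, with a median of 2.27 (beside 7.41% of all genes), while 0 of 8 class II genes were DE in that comparison. MARCHF1 and MARCHF8, ubiquitin ligases that remove class II molecules from the surface, were lower after PMA-Ionomycin at T24. MARCHF8 changed by -1.6 (adjusted p = 9.72e-07). MARCHF1 was at least 2.09-fold lower, as it was not well above background on the stimulated arrays (adjusted p = 0.000118). CD83, which opposes MARCHF1, rose by 0.68 at T4 (adjusted p = 0.0176) and was not DE at T24 (0.16).

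Markers of the cells that carry class II molecules were counted beside the class II genes, against the 11.5% of all genes DE and lower and 22.1% DE and higher after PMA-Ionomycin at T24. Of 12 monocyte markers matched, 11 were DE and lower after PMA-Ionomycin at T24 (median -3.03), CD14 by 3.27 and CSF1R by 3.29 on the log2 scale. Their summed level was 8.73 to 11.46 in mock and 6.04 to 7.07 after stimulation. Of 11 B cell markers matched, 4 were lower (FCRLA by 4.15, BLNK by 2.64, MS4A1 by 2.63 and CD22 by 0.59) and 1, BLK, higher, with a median of -0.29. The summed B cell level was 7.79 to 9.92 in mock and 7.5 to 8.37 after stimulation, with overlap, but a sum follows its brightest probe, here that of CD79B, which was not DE. The median level of the 11 markers was 2.67 to 3.88 in mock and 1.58 to 2.72 after stimulation. Of 8 T cell markers, 2 were lower and 1 higher, but CD4, one of the lower calls, was not well above background on any array with more than 1 of its 2 probes. Of 5 dendritic cell markers 3 were lower, of which LAMP3 was well above background on 1 of the 4 mock arrays and on none after stimulation. Of 2 NK cell markers 2 were higher, of 6 platelet markers 2 higher, of 6 neutrophil markers 3 lower and of 4 erythrocyte markers 1 lower. At T4, 5 of the 6 platelet markers were lower, with a median of -2.02. Also at T4 after PMA-Ionomycin, 5 monocyte markers and 4 B cell markers were lower and 2 B cell markers, EBF1 and BLK, higher, beside 9.34% of all genes lower and 13.5% higher. The presenting chains were not DE at that time, but RLA-DRB1 was DE and lower with the rabbit as a block (adjusted p = 0.0108). The interval of RLA-DQA was wide (-1.4 to 1.59). The summed monocyte level then was 6.71 to 7.8, against 8.87 to 9.45 in mock, while the median level of the 12 markers overlapped between the groups (0.9 to 1.33, against 1.02 to 2.5 in mock). CD79B, a chain of the B cell receptor complex, was lower by 3.93 at T4 and by 0.29 (not DE) at T24. Between T4 and T24, 5 of 12 monocyte markers were DE and higher in mock and 9 of 12 in LPS (medians 0.53 and 2.66), beside 7.41% and 16.7% of all genes. Of the 8 class II genes 0 and 1 were, and 1 of 8 is no more than the share of all genes in LPS. Of the 11 B cell markers, 1 was higher and 1 lower in mock and 1 higher in LPS. The part of these markers' cells in the class II changes was not tested.

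The genes whose levels over the 24 arrays were most like the mean of the 8 members, each scaled to mean 0 and SD 1, were MAP3K1 (r = 0.963), EPHX1 (0.952), TCP11L2 (0.947), CD74 (0.946), PLB1 (0.946), CYTIP (0.942), ITGB7 (0.938) and HLA-DOB (0.93), of 9472 named genes. After PMA-Ionomycin at T24 all 8 were DE and lower (beside 11.5% of all genes), by 1.22 for MAP3K1 to 4.69 for CD74 on the log2 scale. The member mean was lowest on the 4 arrays of that group (-1.89 to -1.41, against -0.43 to 1.51 on all other arrays). Genes chosen for likeness to this mean fall in that group by the choice itself, so their fall is no separate result. The ranking is given as a description.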

How the data were processed

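RNA of PBMCs from 4 rabbits was labelled with Cy3 and hybridised to 24 one-colour arrays. For every array the authors deposited its scan, read with Agilent Feature Extraction 10.7.3.1, in which spot and background signals are intensity values as scanned, with no scaling between arrays. A second deposited table holds log2 values, found here to be log2 median signals centred on the mean of all spots of an array.

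Here, outlier spots were left out, log2 median signals were centred on each array's median over 61657 non-control spots, and spots of a probe and probes of a gene were averaged. Probes were named through the RefSeq table of mOryCun1.1 (RefSeq accession for 11497 probes, gene number for 8926), gene names of the files and the study's immunity list. Members were found by gene name (RLA-DMA of the files is HLA-DMA), gene number or Ensembl identifier, and an identifier was kept for 21109 probes.

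Group means (6) were estimated with limma 3.58.1 in R 4.3.3 (lmFit and eBayes, all arrays, Benjamini-Hochberg over 28869 genes). Figures were drawn in Python 3.11.15 with matplotlib 3.10.9. The steps were tested on simulated data. The number of arrays limits the precision.

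Members and gene lists were chosen with earlier results of these data known, and the text names all members, genes of the pathway lists that were found and the 8 genes with a symbol most like the member mean. Alternatives were quantile normalization, the processed signal minus its 75th percentile, normexp (offset 50) with quantile normalization, the deposited table, leaving out dim probes, fitting only the compared groups, rabbit or slide as a block, eBayes with trend and robust, single probes, leaving out each rabbit, and, chosen after seeing the data, leaving out the 2 arrays with the fewest spots above background. The 3 slides of 8 arrays each held all 6 groups.

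Rabbit numbers mark the same animals, so samples are paired, although the methods use no pairing. The check by deviations from group means gave a median r of 0.228 for 60 pairs of arrays of the same rabbit and -0.0746 for 180 pairs of different rabbits. No genome of the files' build was used. Values of some listed genes are not reported here.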

Additional observations from a re-analysis of the deposited data

Results flagged for a closer look

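For 5 members the PMA-Ionomycin effect differed between T4 and T24 by the interaction term of the limma fit: -4.15 for RLA-DR-ALPHA, -3.26 for RLA-DRB1, -4.29 for RLA-DQA, -1.95 for HLA-DMA and -4.12 for HLA-DOA on the log2 scale, all lower in 4 of 4 rabbits.

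In 7 of the 48 sets of 4 arrays (8 genes in 6 groups), 1 array lay far above the other 3 by Dixon's test, which flags about 1 set in 20 by chance. Rabbit 5 was that array in 6 of them: RLA-DRB1 after LPS at T24 (7.67, the others 5.64 to 5.88), RLA-DQA in mock at T24 (9.48, the others 6.21 to 6.61) and after LPS at T24 (9.04, the others 6.79 to 7.05), HLA-DPA1 after LPS at T4 (2.52, the others 0.21 to 0.56), HLA-DPB1 in mock at T4 (1.6, the others 1.22 to 1.28) and HLA-DOA after LPS at T24 (7.29, the others 5.5 to 5.73). The remaining one was rabbit 2 for RLA-DR-ALPHA after PMA-Ionomycin at T24 (0.31, the others -0.25 to -0.17).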

How the results depend on the processing

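All 8 members stayed DE and lower after PMA-Ionomycin at T24 under every alternative tried, with the exception of HLA-DPA1 without rabbit 4, and RLA-DMB and HLA-DMA at T4 under every alternative tried. With the rabbit as a block (paired analysis), 1 member in place of 0 was DE after LPS at T4 (RLA-DRB1), 2 in place of 1 between T24 and T4 in LPS (RLA-DRB1 added), 3 in place of 2 after PMA-Ionomycin at T4, 7 in place of 5 for the interaction with PMA-Ionomycin, and 7 in place of 6 between T24 and T4 in PMA-Ionomycin (HLA-DPB1 added). The share of all genes DE in either direction rose under the block as well, from 1.03 to 4.26%, 37.6 to 42.2%, 22.8 to 25.9%, 22.5 to 26% and 33.7 to 36.9% in these 5 comparisons. The LPS time comparison gave 0 members under quantile normalization, the processed signal, normexp and without the 2 arrays with the fewest spots above background, and 0 to 1 without single rabbits. The cause was not tested. The processed signal moved the median of all genes by more than 0.1 in most comparisons (-0.258 for PMA-Ionomycin at T24), and called 8 genes in place of 296 after LPS at T4. Its PMA-Ionomycin changes at T24 ran from -5.92 for RLA-DR-ALPHA to -1.63 for HLA-DPB1.

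Of 1008 recomputed changes 22 turned sign, all of changes that were not DE and at most 0.15 in size before the alternative. After PMA-Ionomycin at T4, RLA-DQA (0.09) became -0.13 under quantile normalization and normexp, -0.01 with the processed signal and -0.2 to 0.38 without single rabbits. HLA-DOA (0.06) became -0.2, -0.2, -0.02, -0.02 with slide as a block and -0.32 to 0.47. With the processed signal HLA-DMA after LPS at T4 became 0.1, and RLA-DMB over time -0.02 in mock and -0.28 in LPS. RLA-DMB over time in LPS became -0.07 under quantile normalization and normexp. Without single rabbits, RLA-DMB over time ran from -0.04 to 0.26 in mock and from -0.08 to 0.17 in LPS, its LPS interaction from -0.09 to 0.01, HLA-DPA1 over time in mock from -0.38 to 0.08 and HLA-DPB1 after LPS at T24 from -0.19 to 0.02.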
